A study of Rousettus aegyptiacus with 32 samples.

Results

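Open chromatin of the secondary auditory cortex (2A) was compared with that of motor cortex in adult male Egyptian fruit bats (Rousettus aegyptiacus). The comparison used 8 of the 32 samples of the series, all of them ATAC-seq libraries of bulk tissue. The auditory group was the 2A library of bat 1 and that of bat 3. The motor group was 6 libraries, from the orofacial (ofM1) and the wing (wM1) regions of primary motor cortex and from a premotor cortical area (PreM) of the same 2 bats. The samples were chosen by their labelled area alone. No treatment is given in the labels, so by their labels the groups differed only in the area taken. Each group held the same 2 animals, so the p-values below measure the spread between these libraries and not between animals of a population.

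ATAC-seq uses a transposase that inserts adapters where DNA is not wrapped tightly by nucleosomes, so that promoters, enhancers and other regulatory elements give peaks of reads. Cortical areas share most of their cell classes, and sensory areas are known for a well developed layer 4, which receives thalamic input, whereas motor areas are known for a thin layer 4 and large output neurons of layer 5. The Egyptian fruit bat is studied as a mammal that can modify its calls by learning, and the orofacial region of motor cortex controls muscles of the face and mouth. The labels state no question for auditory against motor cortex beyond the range of tissues sampled. The regions were not joined to genes or to DNA sequence, and marker genes of the dissected areas were not analysed here.

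The authors deposited 1 peak list per library. Each of the 8 lists ended at 300000 rows, and after rows with the same interval were collapsed they held 155151 to 196988 intervals. The number of reads behind each list is unknown, so no counting error can be given for a single peak. In place of depth, the lists gave −log10 p at a fixed rank. At rank 50000 that value was 98.4 in 2A of bat 1, the highest of the 8, and 26.1 in 2A of bat 3, the lowest of the 8. The 6 motor libraries lay between them. The auditory libraries therefore stood at the opposite ends of the 8 on the scale of the peak caller, which is why ranks within lists were compared and not the deposited values. Each list was shortened to its 150000 intervals with the highest −log10 p, and rank 1 was the strongest.

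The intervals of the 8 lists merged into 216388 regions. An interval was present in all 8 lists at 91933 of them. "Strong" below means a place among the 50000 strongest intervals of a list. The auditory and motor libraries shared most of their strong regions: 30896 regions were strong in all 8 libraries. Of the 39501 regions strong in both 2A libraries, 78.2% were strong in all 6 motor libraries as well. The same share for the 15 other ways of choosing 1 library from each bat ran from 73.7% to 79.9%.

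No region was strong in both 2A libraries and without an interval in all 6 motor lists (0 of 216388, or 0%). No region showed the converse either, strong in all 6 motor libraries and without an interval in both 2A lists. Each of the 15 other choices of 1 library per bat against the remaining 6 also gave 0 in both directions. Those choices are 3 motor areas taken in both bats and 12 mixtures of areas. They are not a chance level, since the remaining 6 then hold 1 or both of the 2A libraries and often a second library of a chosen area. Without 2A of bat 1 the counts were 1 and 2 regions. In bulk tissue, fewer cells of a type and less accessible DNA per cell cannot be told apart.

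A weaker definition gave small sets. Of the 216388 regions, 272 (0.126%) were strong in both 2A libraries and not strong in any motor library. In the other direction, 84 regions (0.0388%) were strong in all 6 motor libraries and in neither 2A library. The 15 other choices gave 42 to 299 regions, with a median of 118, for the first count. The 2A pair was second of the 16 choices, and PreM in both bats gave the larger count of 299. The corresponding counts were 142 for ofM1 and 58 for wM1. For the second count the other choices gave 17 to 230 regions, with a median of 64, and 5 of the 15 reached at least 84. Regions strong in both 2A libraries and in no motor library were thus more numerous than the corresponding regions of 14 of 15 other choices. The areas also differed in how many regions each library held alone within its bat, as given below. How far the count depends on that was not tested. The count of regions strong only in motor cortex did not stand out in this way.

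**Figure D1:**
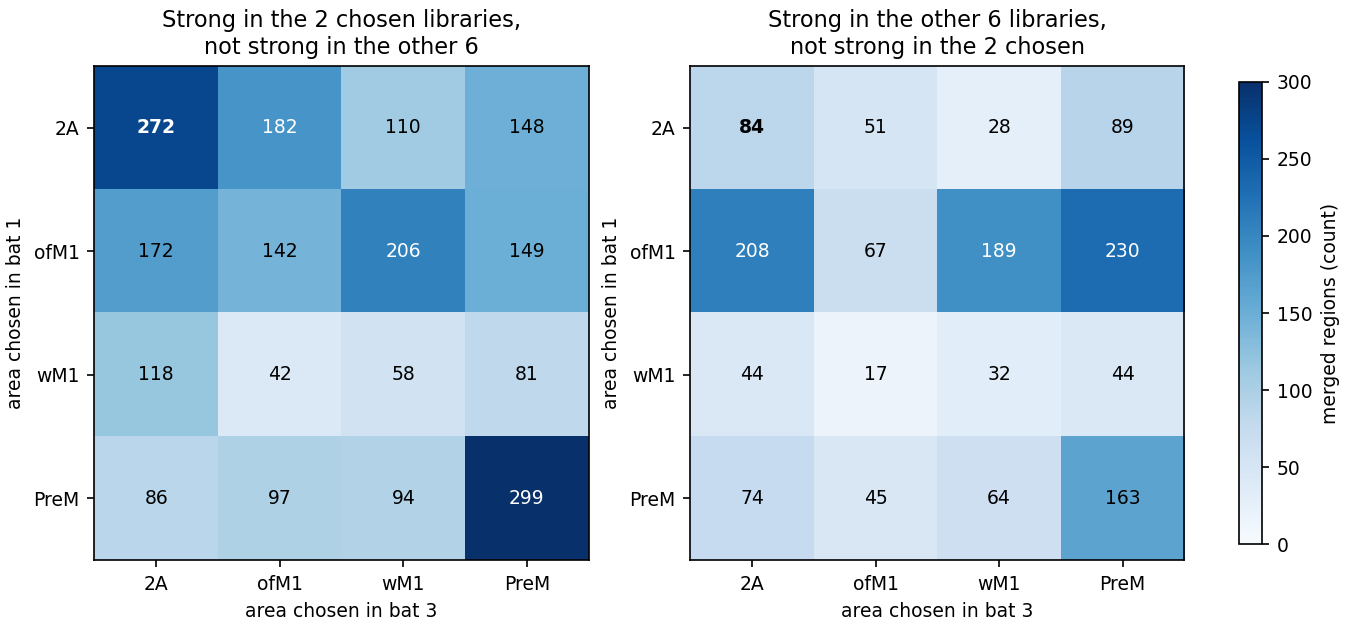
Number of merged regions for each choice of 1 library from bat 1 (rows) and 1 from bat 3 (columns) against the remaining 6 libraries, counted as strong in the chosen libraries only (left) and as strong in the remaining 6 only (right). The 2A pair, at the upper left of each grid, gave 272 and 84 regions, and the PreM pair, at the lower right, gave 299 and 163.

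The counts depended on single libraries. With 2A of bat 1 left out, 1617 regions were strong in the remaining 2A library and in no motor library, and 881 were strong in all 6 motor libraries and not in that one. With 2A of bat 3 left out the counts were 2020 and 1096. Of the motor libraries, PreM of bat 1 moved the counts most. Without it, the 2A set grew from 272 to 440 regions and the motor set from 84 to 250. Leaving out any other motor library gave 304 to 366 and 109 to 125 regions. Dropping a library relaxes the definition, so each count could only stay or rise. The 2 libraries of bat 1 had the most similar ranks of all 28 pairs: the Pearson correlation of log2 rank across the 91933 regions was 0.960 between 2A and PreM of bat 1. It was 0.867 between 2A of bat 1 and 2A of bat 3. The correlation of 2A of bat 3 was highest with ofM1 of the same bat, at 0.942. Within each bat, then, the 2A library was nearer to a motor library of that bat than to the 2A library of the other bat. This was no trait of 2A. Each motor library was also nearer to another library of its bat than to its own area in the other bat. For example, ofM1 of bat 1 correlated at 0.958 with wM1 of bat 1 and at 0.906 with ofM1 of bat 3.

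The same pattern appeared in the regions strong in exactly 2 of the 8 libraries. There were 6247 such regions, and 3991 of them were strong in 2 areas of the same bat, 771 in 1 area of both bats and 1485 in different areas of different bats. These totals come from 12, 4 and 12 pairs of libraries. 2A and PreM of bat 1 shared 936 regions, the most of the 28 pairs. The 2A pair, with 272, was in place 8. Of its 7 predecessors, 6 were pairs of the same bat and 1 was the PreM pair. Among regions strong in all libraries but 2, 2A and PreM of bat 1 again led with 1455 regions, and the 2A pair was in place 17 with 84. The cause of the link between 2A and PreM of bat 1 was not tested, and whether both libraries hold the area that their labels name was not tested either. Each value of 2A of bat 1 given here rests on its label.

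**Figure D2:**
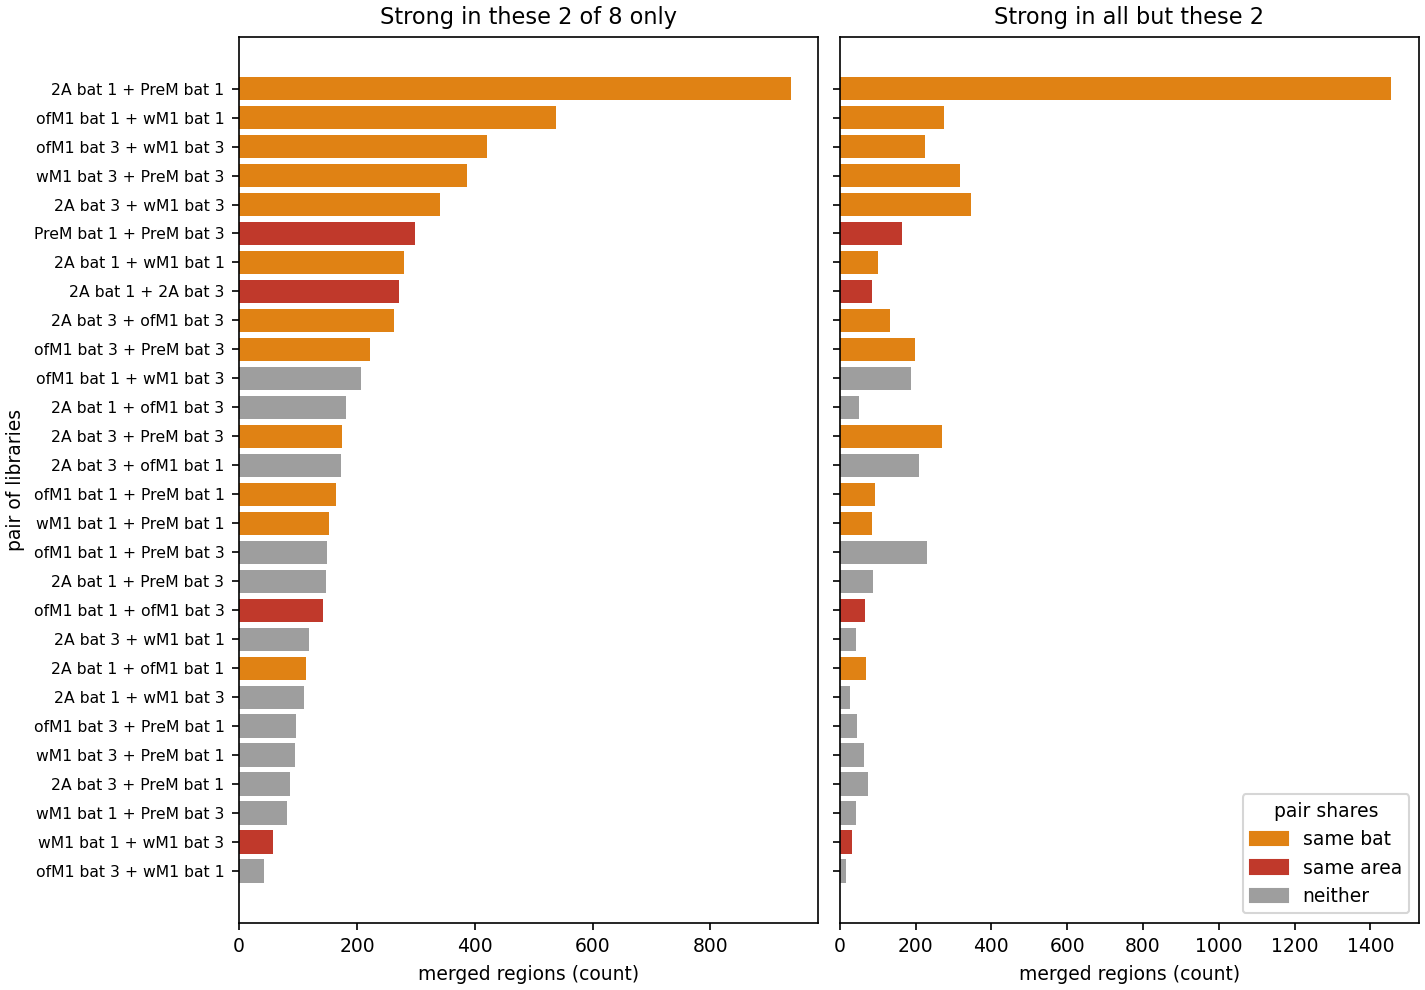
Merged regions strong in exactly the 2 libraries named and in none of the other 6 (left), and strong in the other 6 but in neither library named (right), for all 28 pairs. Bars are coloured by what the pair shares. Pairs of the same bat hold the first 5 places on the left, led by 2A and PreM of bat 1 with 936 regions, and the 2A pair has 272.

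The 272 regions strong in 2A of both bats were not absent from motor cortex. Of these, 263 had an interval in all 8 lists. Their median rank was 43380.5 in 2A of bat 1 and 43605 in 2A of bat 3. It was 73332.5 and 62487 in ofM1 of bats 1 and 3, 64362 and 68424.5 in wM1, and 64620.5 and 72274.5 in PreM. The set therefore lay near the limit of 50000 on both sides, as the definition makes likely. The ratio of the best motor rank to the weaker 2A rank had a median of 1.19. It reached 1.5 at 16 regions, was at most 1.96, and reached 2 at none. The regions had a median width of 933.5 bp, close to the 902 bp of the 6247 regions strong in any 2 libraries. They lay on 18 scaffolds, and 14 of them had another member of the set within 100 kb.

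The 84 motor regions had an interval in all 8 lists. Their median rank was 58073.5 in 2A of bat 1 and 56116 in 2A of bat 3, against 35806 to 42192.5 in the 6 motor libraries. The ratio of the better 2A rank to the weakest motor rank had a median of 1.18. It was at least 2 at 2 regions, both described below, and its highest value was 2.68. The median width was 988 bp.

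Where any of the 150000 intervals counted as present, 834 regions (0.385%) had an interval in both 2A lists and in no motor list, and 370 (0.171%) had one in all 6 motor lists and in neither 2A list. The other 15 choices gave 254 to 880 and 32 to 793 regions. The PreM pair again gave the only larger first count, with 880. The 834 regions were weak and narrow, with a median rank of 131769 in 2A of bat 1 and 129844.5 in 2A of bat 3 and a median width of 440.5 bp. The 370 motor regions had median ranks of 104861.5 to 120148 in the 6 motor libraries. Without PreM of bat 1 the 370 became 728. With 2A of bat 3 alone the counts were 6726 and 3071, and with 2A of bat 1 alone 4942 and 1872.

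Stricter limits, applied to both sides at once, also left few regions. Among the 1000 strongest intervals, 4 regions were in both 2A lists and in no motor list, and 2 were in all 6 motor lists and in neither 2A list. At 5000 the counts were 16 and 15, at 10000 they were 28 and 17, and at 20000 they were 73 and 29. The 16, 28 and 73 regions of the 2A pair were more than the 4 to 9, 7 to 17 and 19 to 58 of the 3 motor areas taken in both bats. At 1000 the 4 regions of the 2A pair were equalled by ofM1 and by wM1, and 8 of the 15 other choices had at least as many. At 50000 the PreM pair had more, as given above. Mixtures of areas reached 63, 79 and 94 regions at 5000, 10000 and 20000. These limits were added after the data had been seen.

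The rank test asked whether any region differed between auditory and motor cortex beyond the spread between libraries. It was run at the 91933 regions with an interval in all 8 lists, on −log2(rank), where a difference of 1 is a rank nearer to the top by 2-fold. No region passed an adjusted p of 0.05 by limma with Benjamini-Hochberg adjustment (0%), and the smallest adjusted p was 0.998. Without adjustment, 3377 regions (3.67%) had p below 0.05, of which 1996 were stronger in 2A and 1381 weaker. With no difference at any region, a share of about 0.05 would be expected below that limit. With the animal as a block the test again called 0 regions, and its smallest adjusted p was 0.257. In that fit 6390 regions (6.95%) had an unadjusted p below 0.05. The other 15 choices, fitted in the same way, called 0 regions. They had 263 to 5266 regions (0.286% to 5.73%) below 0.05 without adjustment. Leaving out PreM of bat 1 raised the 2A against motor number to 6488 of 94544 regions (6.86%), with 0 called.

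The width of the confidence intervals depended on the strength of the region. The median standard error of the 2A minus motor difference was 0.333 on the log2 scale, and the median absolute difference was 0.229. The 95% confidence interval lay within a 2-fold change of rank in either direction at 52371 regions (57.0%). This share was 0% for the 951 regions with a mean rank up to 1000, 18.8% for ranks 1000 to 10000, 46.3% for ranks 10000 to 50000 and 74.9% for the weakest class. The interval thus lay within 2-fold at most weak regions and at none of the strongest. In the weakest class, ranks ran only to 150000 and a region had to be in all 8 lists. These limits themselves narrow the spread of ranks there, so its share cannot be read as precision alone. As a measure of scale, the same libraries compared by animal gave 7529 called regions (8.19%), of which 3967 were stronger in bat 3 and 3562 in bat 1, by limma at an adjusted p of 0.05. With 4 libraries against 4 that comparison is more balanced than 2 against 6. In it the areas of a bat stand as replicates, so its p-values measure the spread between areas within a bat. With 1 bat on each side, the animal cannot be told apart from anything else that differed between the libraries of the 2 bats.

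Ranks of the auditory and motor libraries did not overlap at a minority of regions. Both 2A libraries ranked above all 6 motor libraries at 3297 of the 91933 regions (3.59%), and below all 6 at 2410 (2.62%). The other choices gave 1030 to 3282 regions above and 590 to 4902 below. The count above was the highest of the 16 choices, followed by ofM1 of bat 1 with wM1 of bat 3 at 3282. The 16 choices leave out the 12 pairs of libraries of the same bat. At each region, at most 1 of all 28 pairs can rank above the other 6 libraries, and at most 1 below. An average pair thus holds at most 1 in 28 of the regions. The 2A share above was close to 1 in 28, and the share below was under it. The count below was exceeded by 4 of the 15. Without PreM of bat 1 the counts were 5206 and 4950. With a single 2A library they were 13421 and 13496 for that of bat 3 and 17425 and 15678 for that of bat 1.

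The 10 regions with the smallest p, 5 in each direction, are given here as the largest differences relative to their spread. None passed the test, and the adjusted p of each was 0.998. Since they were chosen by p from 91933 regions, ranks that lie apart and intervals away from 0 are likely by the choice. Their 95% confidence intervals are not corrected for it. Coordinates count from 1 on the scaffolds of the deposited files, and no source used here names their genome build. The lists of the 12 libraries of other tissues were also shortened to their 150000 strongest intervals. "No interval" below means none among those 150000. "Strong" in another tissue means a place among its 50000 strongest, a limit with a lower −log10 p in liver, muscle and testis, as given below.

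The first region stronger in 2A (H1) lay on scaffold NW_023416284.1 from 165493832 to 165495024. Its rank was 6336 in 2A of bat 1 and 5781 in 2A of bat 3. The 6 motor ranks ran from 17213 to 24757 with a median of 21501, so the groups did not overlap. The difference was 1.79 (SE 0.32, 95% CI 1.11 to 2.47). The authors' fold enrichment was 14.3 and 12.2 in the 2A libraries and 7.04 to 10.7 in the motor libraries. H1 was also strong in all 4 striatal libraries, with ranks of 12191 and 9696 in caudate and 7564 and 10238 in putamen of bats 1 and 3. In muscle it had no interval in either bat, and its ranks in cerebellum were 89045 and 50657. H1 thus ranked higher in the auditory and striatal libraries than in any motor library.

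H2 lay on scaffold NW_023416311.1 from 56425130 to 56425735. Its rank was 14100 in 2A of bat 1 and 39538 in 2A of bat 3, against 70499 to 108829 in the motor libraries. The difference was 1.80 (SE 0.35, 95% CI 1.07 to 2.53). The 2A libraries differed from each other here by more than they did at H1, but neither rank reached the motor range. The fold did overlap, at 6.99 and 3.33 in 2A of bats 1 and 3 against 2.73 to 3.71 in motor cortex. With lists ranked by fold the difference at H2 was 0.54, without 2A of bat 1 it was 1.06, and without 2A of bat 3 it was 2.54, so its size rests on 2A of bat 1. H2 was also strong in the cerebellum of both bats, at ranks 23266 and 23181, had no interval in caudate, muscle, testis or liver, and was weak in putamen (111627 and 118418).

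H3, on scaffold NW_023416295.1 from 52994475 to 52995500, ranked 48697 and 39911 in 2A of bats 1 and 3. The motor ranks were 82011 to 148032, with a median of 107628.5. The difference was 1.29 (SE 0.25, 95% CI 0.75 to 1.82), and the authors' fold was 8.70 and 7.97 in 2A against 2.96 to 4.81 in motor cortex. It was strong in the muscle of bat 1, at rank 43515, and had no interval in cerebellum, caudate, liver or testis.

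H4, on scaffold NW_023416288.1 from 18506593 to 18507984, ranked 57174 and 60755 in 2A against 93988 to 131226 in the motor libraries. The difference was 1.03 (SE 0.21, 95% CI 0.59 to 1.48). H4 had no interval in any of the 12 libraries of other tissues. Among the 150000 strongest intervals of each of the 20 ATAC-seq lists it thus appeared in cortex only. H5 lay on the same scaffold from 15788654 to 15789735. It ranked 29251 and 24161 in 2A and 57304 to 79496 in motor cortex, a difference of 1.32 (SE 0.28, 95% CI 0.73 to 1.91). H5 was also strong in caudate, at ranks 30893 and 34603, and was weaker in putamen at 63502 and 57053. At all 5 regions the groups did not overlap in rank.

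The first region weaker in 2A (L1) lay on scaffold NW_023416307.1 from 114361994 to 114363550. Its rank was 133880 in 2A of bat 1 and 137904 in 2A of bat 3. The motor ranks ran from 21773 in PreM of bat 3 to 49907 in ofM1 of the same bat, with a median of 43283.5. The difference was −1.81 (SE 0.33, 95% CI −2.51 to −1.11). The fold was 3.50 and 3.25 in 2A and 5.73 to 10.6 in motor cortex. All 6 motor libraries were strong at L1 and both 2A libraries were among the weaker intervals of their lists. With normal scores of the rank in place of log2, L1 passed the threshold (adjusted p = 0.0317 by limma), the only region to do so under that scale. Outside cortex it was weak in caudate, at 71644 and 65129, and had no interval in cerebellum, liver or testis.

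L2, on scaffold NW_023416289.1 from 34568952 to 34569904, ranked 135493 and 111194 in 2A and 29288 to 49451 in motor cortex. The difference was −1.62 (SE 0.31, 95% CI −2.27 to −0.98). L1 and L2 were the only 2 of the 84 motor regions with ranks at least 2-fold apart. L2 had no interval in any of the 12 libraries of other tissues. L3, on scaffold NW_023416308.1 from 76166237 to 76167136, ranked 100524 and 107716 in 2A and 22663 to 53096 in motor cortex, a difference of −1.49 (SE 0.33, 95% CI −2.19 to −0.78). L3 was also strong in cerebellum, at 49728 and 35548, and in the testis of bat 3, at 26643.

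L4 was not strong in any of the 8 libraries, and L5 was strong in PreM of bat 3 alone. L4, on scaffold NW_023416308.1 from 6095110 to 6095937, ranked 126589 and 146407 in 2A and 58612 to 78137 in motor cortex, a difference of −1.06 (SE 0.24, 95% CI −1.57 to −0.55). It had no interval in the other tissues. L5, on scaffold NW_023416309.1 from 49821522 to 49822494, ranked 124967 and 146704 in 2A and 46126 to 75601 in motor cortex, a difference of −1.11 (SE 0.26, 95% CI −1.66 to −0.56). It was strong in the testis of bat 1, at 20460, and ranked 145446 in that of bat 3. As at H1 to H5, and as the choice by p makes likely, the 2A ranks lay outside the motor range at all 5 regions.

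**Figure D3:**
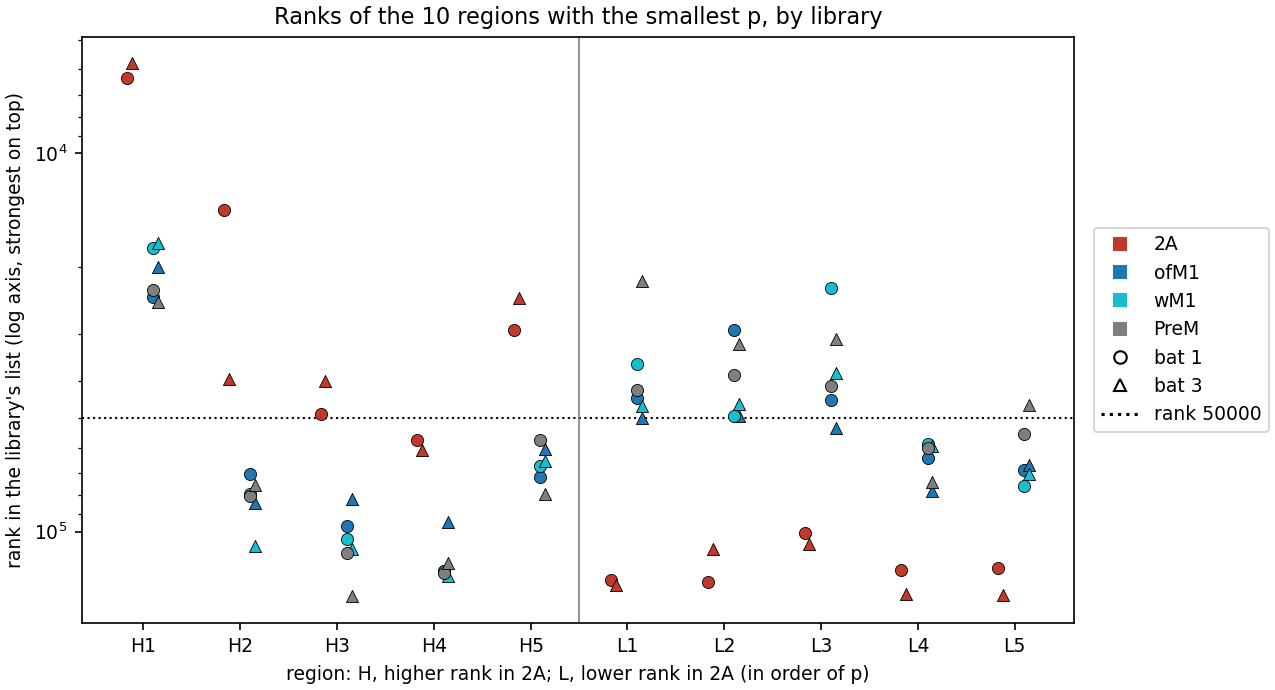
Rank of each of the 8 libraries (log axis, strongest on top) at the 10 regions with the smallest p, H1 to H5 stronger and L1 to L5 weaker in 2A. Red points are 2A, other colours the motor areas, circles bat 1 and triangles bat 3. At each region the red points lie outside the range of the 6 motor points, as the choice by p makes likely. None of the 10 passed the adjusted threshold.

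Regions with an interval in both 2A lists and no motor list were all beyond rank 50000 in the weaker 2A library. The best of the 834 lay on scaffold NW_023416312.1 from 72920949 to 72921459. It ranked 77813 and 79673 in 2A of bats 1 and 3, with a fold of 5.90 and 5.02, and had no interval in any other of the 20 lists. The next, on NW_023416289.1 from 15497230 to 15497998, ranked 84176 and 74312 in 2A. It was present in the caudate of both bats at 119447 and 92417 and in the testis of bat 3 at 92313. The third, on NW_023416307.1 from 90097298 to 90098008, ranked 75769 and 84943. Outside 2A it had an interval only in the muscle of bat 3, at rank 120824. The fourth, on NW_023416307.1 from 62624523 to 62625776, ranked 85496 and 82486 and was present in cerebellum at 92722 and 65337. In bat 3 it was also present in muscle at 75315 and in testis at 61009. The fifth, on NW_023416306.1 from 15602192 to 15602608, ranked 86299 and 61136, and outside 2A had an interval only in testis, at 105688 and 60194. Of these 5 regions, then, 1 was listed in 2A alone among the 150000 strongest intervals of the 20 libraries.

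The converse regions were of similar strength. The best of the 370 lay on NW_023416287.1 from 92347450 to 92348284. It ranked 61130 and 75499 in ofM1, 69094 and 70554 in wM1 and 71992 and 38497 in PreM of bats 1 and 3. It was strong in muscle, at 41361 and 26013, and had no interval in the other tissues. The second, on NW_023416287.1 from 1389547 to 1390866, ranked 50286 to 89042 in the motor libraries. The third, on NW_023416284.1 from 179839312 to 179840831, ranked 72626 to 95574 there and 50068 to 52775 in the 4 striatal libraries, and was strong in the liver of bat 3, at 36248. The fourth, on NW_023416310.1 from 73411309 to 73412583, ranked 52331 to 95693 in motor cortex and was strong in caudate at 34232 and 37420. In putamen it ranked 54861 in bat 1 and was strong in bat 3, at 29095. The fifth, on NW_023416295.1 from 92895983 to 92896492, ranked 69896 to 96531 and had no interval outside motor cortex. The fifth was thus the one of these regions listed in motor cortex alone among the 150000 strongest intervals of each list.

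The 4 regions among the 1000 strongest of both 2A lists and of no motor list, named after their values were seen, were strong everywhere. The one with the largest difference lay on NW_023416306.1 from 96611674 to 96613231. It ranked 805 and 469 in 2A and 1342 to 2335 in the motor libraries, a difference of 1.49 (SE 0.46, 95% CI 0.52 to 2.45). The other 3 lay on NW_023416285.1 from 24815379 to 24816983, on NW_023416295.1 from 116863465 to 116865008 and on NW_023416306.1 from 79348997 to 79350495, with differences of 0.91, 1.36 and 1.07. All 12 libraries of other tissues were strong at each of the 4 regions. The interval of the first of these 3 reached below 0, and the adjusted p was 0.998 at all 4. Their fold in the 2A libraries overlapped that of the motor libraries: at the region with the largest difference it was 18.3 and 14.96 in 2A and 11.4 to 18.0 in motor cortex, with the second of these inside the motor range.

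A difference found in 1 bat could be read in the other, since the 4 libraries of each bat share none with the other. For each bat, the 2A value was set against the mean of the 3 motor values of that bat. Across the 91933 regions, the Pearson correlation of the 2A difference in bat 1 with that in bat 3 was 0.073. It is a description across regions, which are not independent replicates. The 16 combinations of an area of bat 1 and an area of bat 3 gave −0.22 to 0.24, and 5 of 16, the 2A pair included, were at or above the 2A value. Within a bat the area differences cancel in sum at each region. The 16 values therefore depend on each other and cannot all be positive, and the means of same-area and other pairs are tied as well. 2A of bat 1 correlated more with ofM1 of bat 3, at 0.24, than with 2A of bat 3. Over the 4 same-area pairs the mean was 0.0043 ± 0.15 (SD, n = 4) and over the 12 others −0.0017, with p = 1 in an exact two-sided permutation test over the 24 assignments of the areas of bat 3. The smallest p this test allows is 0.0417. The mean number of regions strong in the chosen pair only was 193 ± 113 (SD, n = 4) for same-area pairs and 124 for the 12 others, with an exact permutation p of 0.125, or 0.625 when adjusted over the 5 measures tested in this way. On both measures, other assignments of the areas were at least as extreme as the matching one. After adjustment over the 5 measures, a single measure could not pass the threshold even at the smallest p of 0.0417. The test therefore cannot decide whether same-area pairs differ from the other pairs.

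**Figure D4:**
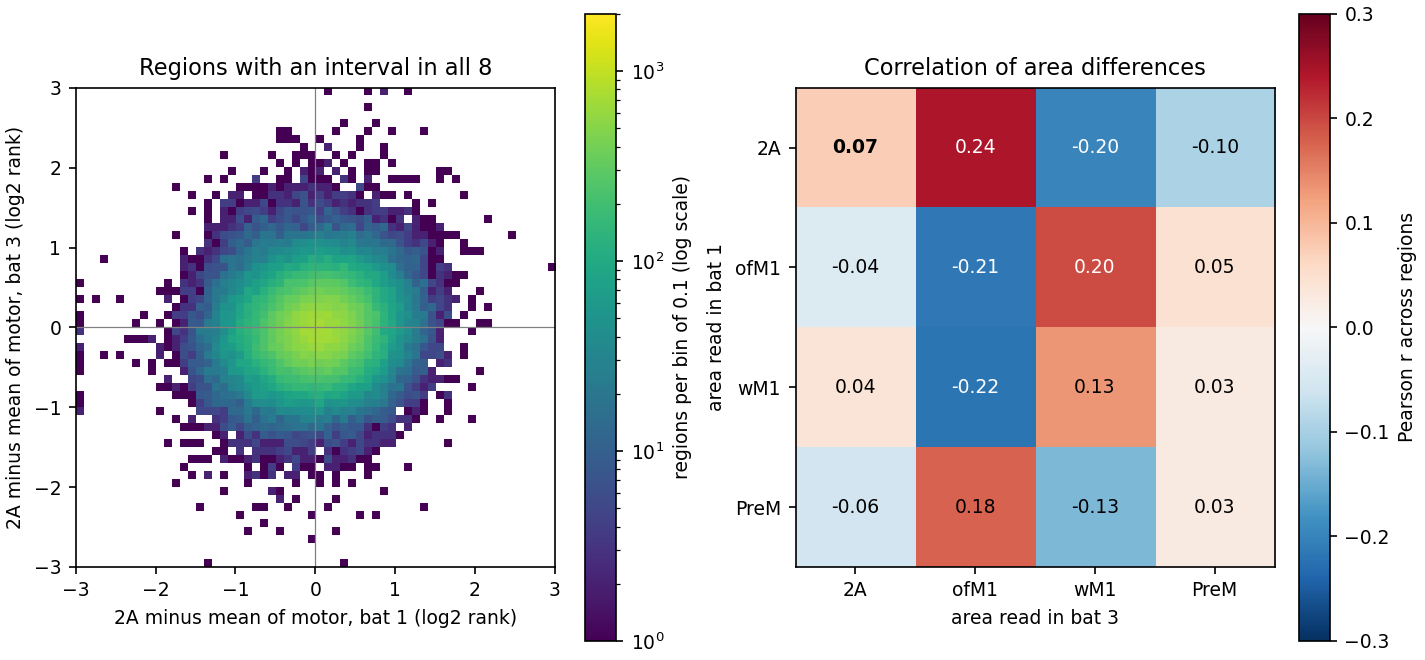
Left, the 2A minus mean motor difference in log2 rank in bat 1 (x axis) and bat 3 (y axis) for 91933 regions, coloured by the number of regions per bin; values beyond 3 are drawn in the outermost bins. Right, Pearson r of such differences for each area of bat 1 (rows) and of bat 3 (columns). The 2A pair has r = 0.07, and the highest value, 0.24, joins 2A of bat 1 to ofM1 of bat 3.

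Large differences carried over in part. The difference exceeded 2-fold in rank at 4536 regions in bat 1 and at 3201 in bat 3, and at 279 in both. Of the 279, 82 were stronger in 2A in both bats, 104 weaker in both and 93 opposite, so 66.7% had the same direction. That share was 61.1% for PreM in both bats, 47.1% for wM1 and 12.8% for ofM1. Among all other 15 combinations, 4 had a higher share, up to 89.9% for PreM of bat 1 with ofM1 of bat 3. Unlike areas could therefore match as well as 2A did.

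The 1000 regions most raised in 2A of bat 1 had a median difference of 1.27 there and of 0.12 in bat 3, where 59.8% were above 0. Over all regions 48.6% were above 0 in bat 3. Read in ofM1 of bat 3 in place of 2A, the same 1000 regions were above 0 at 61.1%, against 54.9% of all regions. The 1000 most lowered in 2A of bat 1 had a median of −1.35 there and −0.15 in bat 3, with 37.6% above 0. Read in ofM1 of bat 3, these lowered regions had a median of −0.30, with 26.8% above 0, a larger carry-over than in 2A. Chosen in bat 3, the 1000 most raised had a median of 1.30 there and 0.02 in bat 1, where 51.0% were above 0 against 51.7% of all regions. Read in wM1 of bat 1, these raised regions had a median of 0.18, with 64.9% above 0 against 51.5% of all regions. Their medians in ofM1 and PreM of bat 1 were −0.10 and −0.15. The 1000 most lowered in bat 3 had −1.24 and −0.15, with 39.2% above 0 in bat 1. In ofM1, wM1 and PreM of bat 1 these lowered regions had medians of −0.007, 0.073 and 0.019. Read in 2A of the other bat, the lowered regions had a median below 0 for both choices. The raised regions had a median there above that of all regions only when chosen in bat 1.

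Of 3137 regions strong in 2A of bat 1 and in none of its 3 motor libraries, 272, or 8.67% (exact binomial 95% CI 7.71 to 9.71, which covers counting error only), met the same definition in bat 3. In the ofM1, PreM and wM1 libraries of bat 3, the same 3137 regions were the ones strong in that area alone at 182 (5.80%), 148 (4.72%) and 110 (3.51%). Of 3220 regions chosen in bat 3, the same 272, or 8.45% (7.51 to 9.46), met it in bat 1, against 172 (5.34%) for ofM1, 118 (3.66%) for wM1 and 86 (2.67%) for PreM. The areas differ in how many regions meet the definition at all, so these shares were also set against the share of all 216388 regions. In bat 3, 1.49% of all regions met it for 2A and 0.947% for ofM1, so that the 3137 regions met it 5.83 times as often as all regions for 2A and 6.12 times as often for ofM1. The ratios for wM1 and PreM of bat 3 were 3.19 and 2.61. For the 3220 regions chosen in bat 3 and read in bat 1, the ratio was 5.83 for 2A, 6.05 for wM1, 3.10 for ofM1 and 2.05 for PreM. Relative to all regions, a motor area of the other bat thus had a ratio close to that of 2A in both readings. The ratio of 2A is the same in both by construction. The ratios have no interval, and their order was not tested. The ratio was 5.88 for PreM in both bats, 4.02 for ofM1 and 4.03 for wM1. With the stricter definition of no interval in any motor list, 0 regions could be chosen in bat 1, and 4 in bat 3, of which 0 met it in bat 1.

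The 12 libraries of other tissues took no part in choosing the sets. At rank 50000 their −log10 p was 4.23 and 4.80 in liver of bats 1 and 3, 5.65 and 9.09 in muscle and 7.57 and 6.11 in testis. It was 26.1 to 98.4 in the 8 cortical lists, so an interval called strong in these 3 tissues can be weaker on that scale. Of the 272 regions strong in 2A, 18.0% and 18.8% were strong in caudate of bats 1 and 3, 21.3% and 20.2% in putamen, and 19.9% and 19.1% in cerebellum. For the 6247 regions strong in any 2 of the 8 cortical libraries the shares were 15.8% and 15.7%, 19.4% and 21.2%, and 16.9% and 16.9%. All 6 of these values lay inside the exact 95% intervals of the 272. In muscle, the 272 were strong at 11.8% (8.19 to 16.2) and 9.19% (6.04 to 13.3), against 15.5% and 15.3% of the 6247. In testis the shares were 6.99% and 5.88% against 10.7% and 9.03%, and in liver 3.68% and 4.78% against 5.63% and 9.33%. The shares of the 272 were thus lower in all 6 libraries of muscle, testis and liver. The regions strong in PreM of both bats only and those strong in ofM1 of both bats only were also lower in all 6. In muscle, for example, they stood at 8.36% and 3.01% and at 10.6% and 12.7%. The lower shares were thus no trait of the 2A set alone. The 58 regions strong in wM1 of both bats only were higher in all 6, for example at 31.0% and 25.9% in muscle. The share of the 6247, which include the 272, lay outside the interval of the 272 in the muscle and liver of bat 3 and, barely, in the testis of bat 1. These shares were not tested against each other.

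The 84 motor regions were set beside the 4995 regions strong in exactly 6 of the 8 libraries. In cerebellum, 21.4% (13.2 to 31.7) and 14.3% (7.61 to 23.6) of the 84 were strong in bats 1 and 3, against 27.4% and 27.3% of the 4995, and the value of bat 3 lay outside the interval. In caudate the shares were 38.1% and 27.4% against 33.3% and 29.6%, and in putamen 27.4% and 39.3% against 30.6% and 46.2%. In muscle they were 29.8% and 35.7% against 28.3% and 28.4%. With only 84 regions these intervals are wide, and all other values of the 4995 in caudate, putamen and muscle lay inside them.

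**Figure D5:**
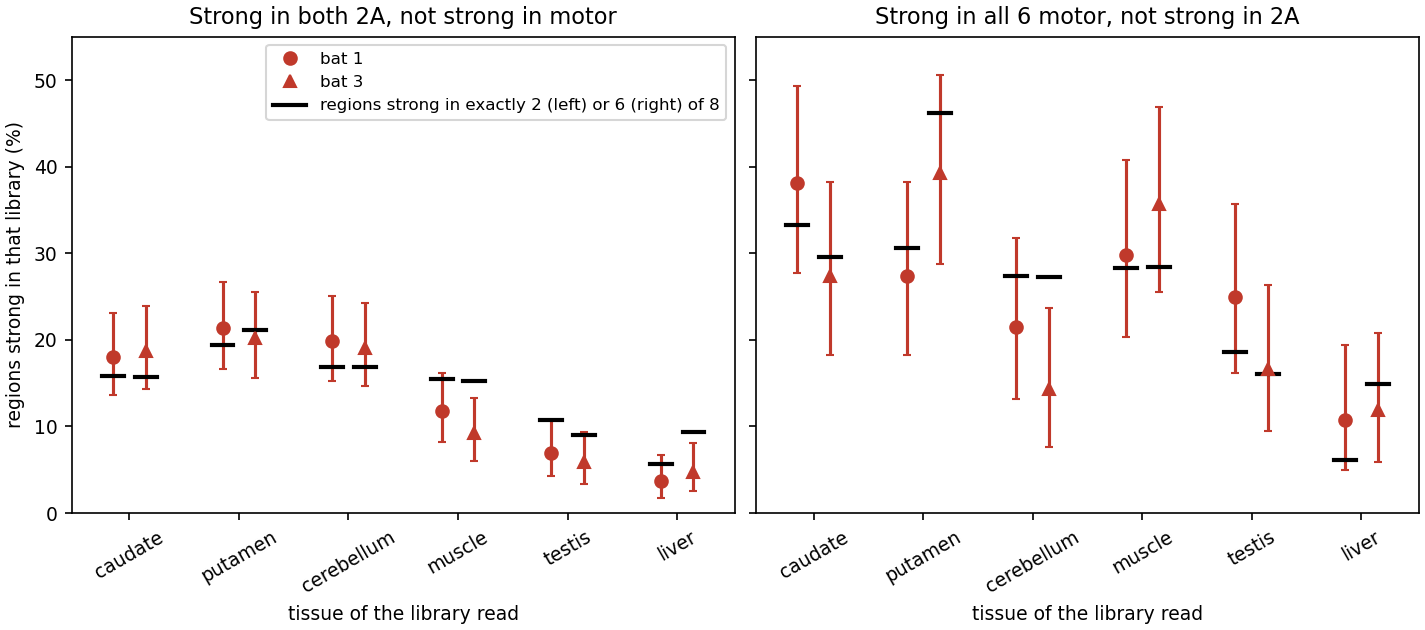
Percentage of regions strong in each library of another tissue, for the 272 regions strong in both 2A libraries only (left) and the 84 strong in all 6 motor libraries only (right). Points are bat 1 (circles) and bat 3 (triangles) with exact binomial 95% intervals, and black bars are the regions strong in exactly 2 or exactly 6 of the 8 cortical libraries. In muscle, testis and liver all 6 points on the left lie below their bars, as the corresponding shares of the PreM and ofM1 pairs, not drawn, also do. Those of the wM1 pair, not drawn, lie above the bars.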

How the data were processed

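ATAC-seq was made from nuclei that were freed from frozen tissue by Dounce homogenisation, per the labels' protocols. The submitters' processing notes list Bowtie2 and MACS2 with no role and no version. Their settings, the read depth and the genome build were not given in the sources used here. The authors deposited 1 narrowPeak list per library, so that each library has peaks of its own and bats were not pooled. Column 7 of the deposited lists holds a fold enrichment (a ratio) and column 8 a −log10 p, and both are the authors' values. The lists of the 8 cortical libraries all ended at 300000 rows, so weak peaks beyond that limit are missing and an absent interval need not be closed chromatin.

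Rows with the same interval were collapsed to the highest column 7 and column 8, intervals were ranked by column 8, and each list was shortened to its 150000 strongest. Intervals of the 8 lists that overlapped by at least 1 bp were merged (checked against bedtools 2.31.1), and a region took its best rank per library. Regions with an interval in all 8 lists were tested on −log2(rank) with limma 3.58.1 in R 4.3.3, with a trend in the variance and no pseudocount, and p-values were adjusted over all 91933 regions by Benjamini-Hochberg at 0.05. Single counts and shares have no test, and shares have exact binomial 95% intervals. Over the 16 choices of 1 library per bat, 5 measures were compared between same-area and other pairs by an exact permutation test. The scripts were tested on simulated data. Python 3.11.15, pandas 2.3.3, NumPy 2.4.6 and SciPy 1.17.1 were used.

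The animal pairs the libraries by label. Deviations of the libraries of a bat from the mean of their area correlated at 0.104 to 0.589 (median 0.465) over 6 pairs of areas. Alternatives were other list lengths, limits, scales and overlaps, a block for the animal, 1 term per area and each library left out.

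Named regions were the 5 with the smallest p in each direction, since none passed, and the 5 in each direction with the best weaker rank when any of the 150000 intervals counted as present. The members and rules were chosen with earlier results of these data known. RNA-seq libraries, promoters, gene lists and marker genes were not analysed here, because the regions were not tied to genes.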

Additional observations from a re-analysis of the deposited data

Results flagged for a closer look

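Of 25 groups of 6 motor values examined, 2 held a library far from the other 5, and chance alone gives about 1 in 20 such groups. At H4, on scaffold NW_023416288.1 from 18506593 to 18507984, ofM1 of bat 3 had rank 93988, stronger than the other motor libraries, whose ranks were 120952 to 131226. At the first region with an interval in all 6 motor lists and neither 2A list, on scaffold NW_023416287.1 from 92347450 to 92348284, PreM of bat 3 had rank 38497 and the other 5 had ranks of 61130 to 75499.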

How the results depend on the processing

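Of 18 alternatives of the rank fit, 16 called 0 regions, with 2132 to 11417 regions at an unadjusted p below 0.05 over all 18. The number of regions tested differed too: 2132 was 3.35% of 63715, and 11417 was 5.28% of 216388. With normal scores of the rank 1 region was called, weaker in 2A, and with absent intervals placed just behind the last rank in regions with any interval, 319 were called, all stronger in 2A. Of the 319, 168 had no interval in any motor list and 1 had an interval in all 8, so this setting rests on a rank that was assigned. In fits without a 2A library the lone one was assumed to vary like the others. Replicate block: the fit with the animal as a term called 0 regions. The 10 regions with the smallest p were chosen from the same values, so most alternatives were likely to keep their direction. Of 172 alternative values at the 10 regions with the smallest p, 170 kept their direction and stayed above the threshold, 2 passed it (H1 with 1.79 at the assigned rank, L1 with −1.95 in normal scores) and 0 reversed.

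The 0 regions strong in 2A with no motor interval became 8 when the 100000 strongest were strong, 834 for any interval, 272 when not among the 50000 strongest counted as absent, and 0 to 1 with 1 library left out. The 0 motor regions became 5, 370, 84 and 0 to 2. With 2A and PreM of bat 1 left out together, a choice made after the data had been seen, they were 1 and 2. With strong and absent both set at 1000, 5000, 10000 and 20000 they were 4, 16, 28 and 73 for 2A and 2, 15, 17 and 29 for motor. The limit of 30000, the stricter overlap, ranking by fold and every deposited interval gave 0 in both. The correlation of the 2A difference between bats was 0.015 to 0.15 without 1 motor library, −0.036 when ranked by fold and 0.069 to 0.077 in the other settings. The share chosen in bat 1 and met in bat 3 was 8.67% where not strong counted as absent and has no value under the stricter rule, and no region could be chosen at the limit of 30000. Depth is unknown and limits what a missing interval means.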
